A study of Bos taurus with 134 samples.

Results

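VV (vivo vitro) oocytes were compared with IVO (in vivo matured) oocytes in the single-cell RNA-seq data of bovine MII oocytes. VV oocytes were taken as every library of that label, numbered 65 to 88, and IVO oocytes as those numbered 57 to 64 and 72, which lie next to or among the VV numbers. Values were present for 22 of 23 VV and 7 of 9 IVO libraries, so that 29 of the 80 RNA libraries with values in the series entered the comparison. VV library 77 and IVO libraries 57 and 58 held no finite value. Both groups came from Holstein heifers of 15 to 18 months, of which the study used 4, given 180 mg of FSH over 4 days and GnRH 40 h after prostaglandin. Follicles of at least 8 mm were aspirated 24 h after GnRH. The cumulus decided the group at aspiration. Complexes with an expanded cumulus gave the IVO oocytes, which were stripped of cumulus cells without culture and kept if they had a polar body. Complexes with little expansion were matured for another 22 h, and those with a polar body after this time gave the VV oocytes, which came from some of these heifers only. Culture and cumulus expansion at aspiration therefore differ together and cannot be told apart, and whether the cows differed between the groups is not known here. Both groups carry the wild-type genotype label.

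An oocyte that resumes meiosis breaks down its germinal vesicle, extrudes the first polar body and arrests at metaphase II. Transcription is silent over this period, so that the oocyte lives on maternal mRNA stored during growth, and the abundance of a transcript is set by storage, by degradation and by the length of its poly(A) tail. Cumulus expansion is the response of the surrounding somatic cells to the ovulatory signal. RNA was captured here by oligo-dT, so loss of a transcript and loss of its poly(A) tail cannot be told apart, nor can a change in total RNA per oocyte, since the deposited values are scaled within each library. The deposited file covers 7022 genes under numbers without names, so that no gene, oocyte marker or cumulus marker could be named, and the labelled cell type could not be checked against its markers.

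Each library is 1 oocyte. No label gives the cow of an oocyte, so that each group counted as 1 sample, no test between the groups was made, and SDs and intervals are descriptions over oocytes. The values are whole numbers that the authors scaled so that the 75th percentile was 61 in every library. In a library whose own 75th percentile lies at few reads, 1 read is therefore worth many units. This step could be read from the file, which gave between 46061 and 1358233 reads in listed genes per VV oocyte, with a median of 321964, and between 84683 and 630889 per IVO oocyte, with a median of 268792. The worth of 1 read was above 1 unit in 21 of 29 libraries, and in VV library 87 it was 61 units, so that each of its genes was either at 0 or at 61 and above. Library 87 was not the shallowest, with 84441 reads, against 84683 in IVO library 60, where 1 read was worth 6.801 units. Only 26.4% of genes were above 0 in library 87, whose scaled values summed to 5168627, against a VV median of 528409. By the rates listed for each library in the study, VV libraries also had a lower median alignment rate than these IVO libraries.

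Of the IVO libraries, 72 stood apart from its label. It had a median Spearman's rho of 0.815 with the 22 VV oocytes and of 0.683 with the other 6 IVO oocytes, and only 1 of 22 VV oocytes, library 82, had a larger excess of the first over the second. For VV oocytes the second was a median over all 7 IVO oocytes, library 72 included, so the excesses are not fully alike. Those of VV libraries 66 (0.126) and 67 (0.125) were close to that of library 72 (0.132). Its 5 highest correlations, from 0.875 to 0.882, were all with VV oocytes (libraries 70, 69, 83, 71 and 66). At the 937 genes that differed at least 2-fold between VV and the other 6 IVO oocytes, library 72 lay closer to the VV median at 823 (87.8%). When each of the other IVO libraries was left out in the same way, this share was between 25.0% for library 59 and 58.2% for library 64. The library is kept in its labelled group below, and several of the main values are also given without it. VV library 87, with the coarsest values, and IVO library 62 were also left out in turn.

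More genes were detected per VV oocyte than per oocyte of these IVO libraries, but the groups overlapped. Genes with a value above 0 numbered between 1852 (library 87) and 5102 (library 65) in VV oocytes, with a median of 4432.5. In IVO oocytes they numbered 2977 in library 59, 3487 in library 60, 4485 in library 61, 3468 in library 62, 3779 in library 63, 4310 in library 64 and 4916 in library 72, with a median of 3779. Of 22 VV oocytes, 18 lay above the IVO median, 3 above the highest IVO oocyte and 1 below the lowest. The difference of the medians was 653.5 genes, with an SD of 741 over VV oocytes (n = 22) and of 679 over IVO oocytes (n = 7). Without VV library 87, the difference was 668 genes and the SD over VV oocytes 520, so that the order of the 2 turned. These SDs describe single oocytes and not the precision of a median. Without library 72 it was 799.5 genes, and without VV library 87 and IVO library 62 it was 402.5. Leaving out any one of IVO libraries 59, 60 and 62 brought it to 388. It was 256 over the 18 VV and 5 IVO oocytes whose lowest value above 0 was at most 4. It was 327 or 351 when a value of at least 5 or 10 counted as detected. Other groups of the series, at their own depths, had higher medians than VV. The median was 4500 genes in IVO libraries 19 to 38, which carry the same label as the IVO oocytes here. In oocytes matured entirely in vitro (IVM), it was 4785.5 in libraries 39 to 56 and 4904 in libraries 1 to 17.

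Reads per oocyte differed widely. VV library 76, with 46061 reads, had 3136 genes, and VV library 65, with 1066430 reads, had 5102. When every oocyte was thinned to 40000 reads, VV oocytes had between 1747 and 3856 genes, with a median of 3480, and IVO oocytes between 2508 and 3815, with a median of 3109. The difference of the medians was 371 genes, and the SD was 426 over VV oocytes (213 without library 87, with a median of 3492) and 409 over IVO oocytes, while 19 of 22 VV oocytes lay above the IVO median. At 80000 reads, which 20 VV and 7 IVO oocytes reached, the medians were 3968.5 and 3465. Some oocytes kept few genes at any depth. VV library 87 had 1852 genes from 84441 reads, whereas VV library 84, with 90583 reads, had 3907. IVO library 59 had 2977 genes from 225394 reads, the fewest of the IVO oocytes, and VV library 78 had 3771 genes from 629934 reads. Library 72 had the most genes of the IVO oocytes at both depths.

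**Figure D1:**
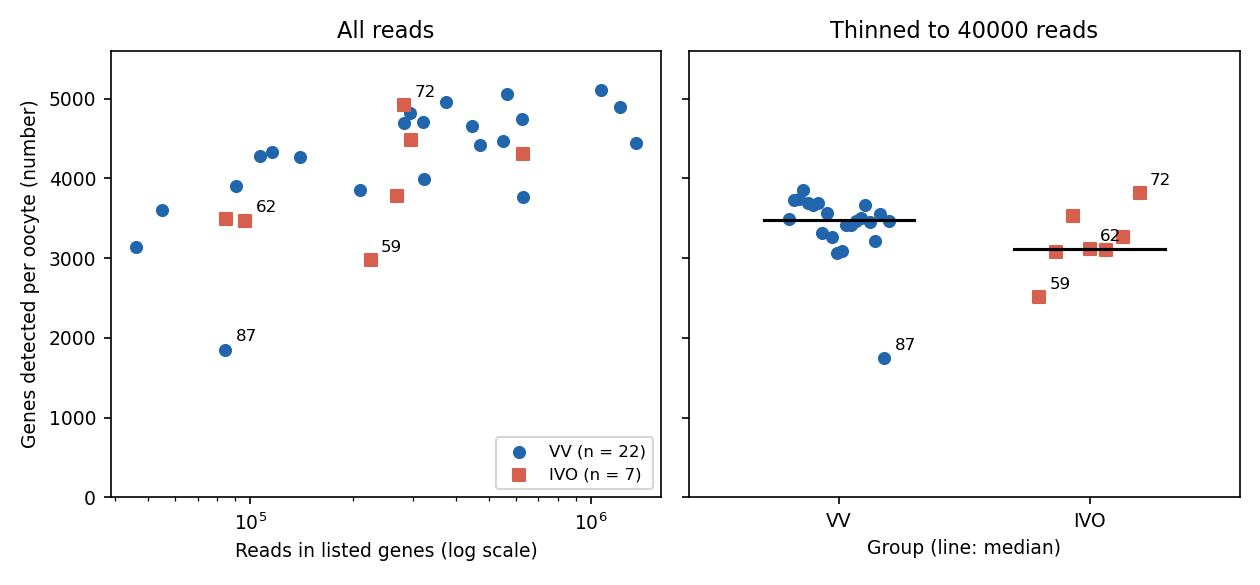
Genes with a value above 0 per oocyte against the reads in listed genes (left, log axis) and after thinning every oocyte to 40000 reads (right; lines mark group medians of 3480 in VV and 3109 in IVO). Points are single oocytes, 22 VV (circles) and 7 IVO (squares), with libraries 87, 59, 62 and 72 numbered; VV and IVO oocytes overlap at both depths, and VV library 87 lies lowest.

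Almost no gene was switched on in one group and off in the other. A gene was taken as on when it was above 0 in at least 75% of the oocytes of a group (17 of 22 VV or 6 of 7 IVO oocytes) and off when it was above 0 in at most 10% (2 VV oocytes, or 0 IVO oocytes). By this rule, 0 of 7022 genes (0.0%) were on in VV and off in IVO, and 1 gene (0.0142%) was on in IVO and off in VV. That gene was above 0 in 6 of 7 IVO oocytes (85.7%, exact Clopper-Pearson 95% interval 42.1 to 99.6%) and in 2 of 22 VV oocytes (9.09%, 1.12 to 29.2%). Its level was low, between 0 and 27 in IVO oocytes with a median of 6, and at most 4 in VV oocytes. Such intervals cover counting error only. Both counts were the same without VV library 87 and IVO library 62 and with 40000 reads each, whereas 6 genes were on in VV and off in IVO when library 72 was left out. Because 0 of 7 IVO oocytes allows a share of up to 42.9%, taken as 3 oocytes of 7, off in IVO is a weak statement.

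The repertoire of the groups was largely shared. On in both groups were 2748 genes (39.1% of those listed), and 1107 genes (15.8%) were above 0 in each of the 29 oocytes, a number that rose to 1693 (24.1%) when VV library 87 and IVO library 62 were left out. These 1107 genes made up a median of 67.7% of the summed values in VV oocytes and 71.1% in IVO oocytes. At the other end, 387 genes were above 0 in no oocyte. A further 947 genes were above 0 in some VV oocyte and in no IVO oocyte, against 75 genes the other way, with 22 oocytes to be detected in on one side and 7 on the other. The 947 genes were sporadic, with a median of 2 VV oocytes per gene and at most 15. A detection share at least 50 percentage points higher in VV was found for 72 genes (1.03%), and at least 50 points higher in IVO for 7 genes (0.0997%). With 40000 reads each, these numbers were 64 and 17, and without VV library 87 and IVO library 62 they were 104 and 12.

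**Figure D2:**
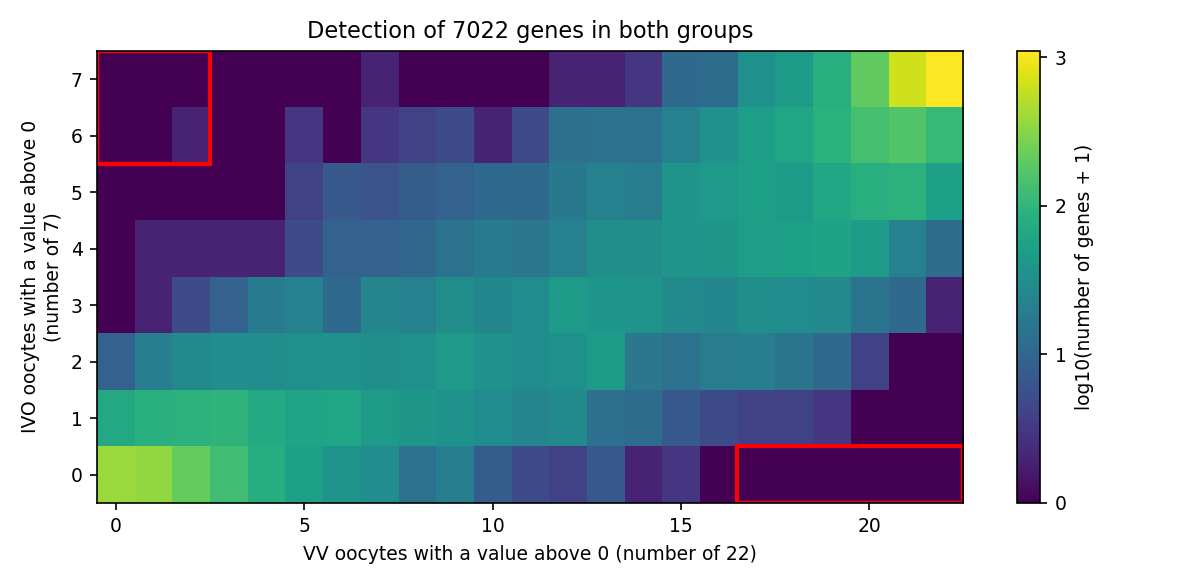
Number of genes (colour, log10 of the number plus 1) by the VV oocytes (horizontal axis, of 22) and the IVO oocytes (vertical axis, of 7) in which they were above 0. The red frames mark genes on in one group and off in the other, with 0 genes in the lower right and 1 gene in the upper left frame, whereas 1107 genes lie in the top right corner.

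Shifts in abundance were common but mostly small. Over the 3320 genes with a mean of the group medians of at least 10, the log2 ratio of the VV to the IVO median, each plus 1, had a median of -0.03 and a median absolute value of 0.49. The middle part of its distribution, from the 25th to the 75th percentile, ran from -0.50 to 0.48, and the 5th and 95th percentiles were -1.24 and 1.61. At least 2-fold higher in VV were 413 genes (12.4% of those tested), and at least 2-fold lower 302 genes (9.1%). No gene of either set had ranges that did not overlap between VV and IVO oocytes (0.0% of 3320), also without VV library 87. In a milder separation, the quartiles of one group lay outside those of the other. It was met by 131 of the higher genes (3.95% of those tested) and 113 of the lower genes (3.4%). Neither separation was counted without IVO library 72, so the part of that library in these counts was not tested.

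Among genes past 2-fold, more were graded than on/off-like. Of all 715, 422 (59.0%) were above 0 in at least 75% of the oocytes of both groups and are called graded. The same detection was met by 2706 of all 3320 genes tested (81.5%), a larger share. Of the 715, 10 (1.40%) differed by at least 50 points in detection share and are called on/off-like, and 283 (39.6%) lay in between. Without library 72, 599 of 937 genes (63.9%) were graded, 36 (3.84%) on/off-like and 302 in between, and without VV library 87 and IVO library 62, 63.7% of 731 genes were graded, 20 (2.74%) on/off-like and 245 in between. Of the 302 genes lower in VV, 245 were graded, 57 in between and 0 on/off-like, and a gene of this set was above 0 in a median of 90.9% of VV oocytes and of all 7 IVO oocytes. Of the 413 genes higher in VV, 177 were graded, 226 in between and 10 on/off-like, with a median share of 95.5% in VV and 71.4% in IVO oocytes. This division is partly set by the filter, which a gene can pass through 1 group alone. Of the higher genes, 171 had an IVO median under 10, of which 33 had an IVO median of 0, and of the lower genes, 70 had a VV median under 10. Ratios of the 33 genes depend on the 1 added to each median. Among the graded genes alone, the median log2 ratio was 1.32 for those higher and -1.26 for those lower in VV. With no filter on low values, 26.9% of the genes past 2-fold were graded. Of the 2706 genes tested that were on in both groups, 15.6% were past 2-fold.

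**Figure D3:**
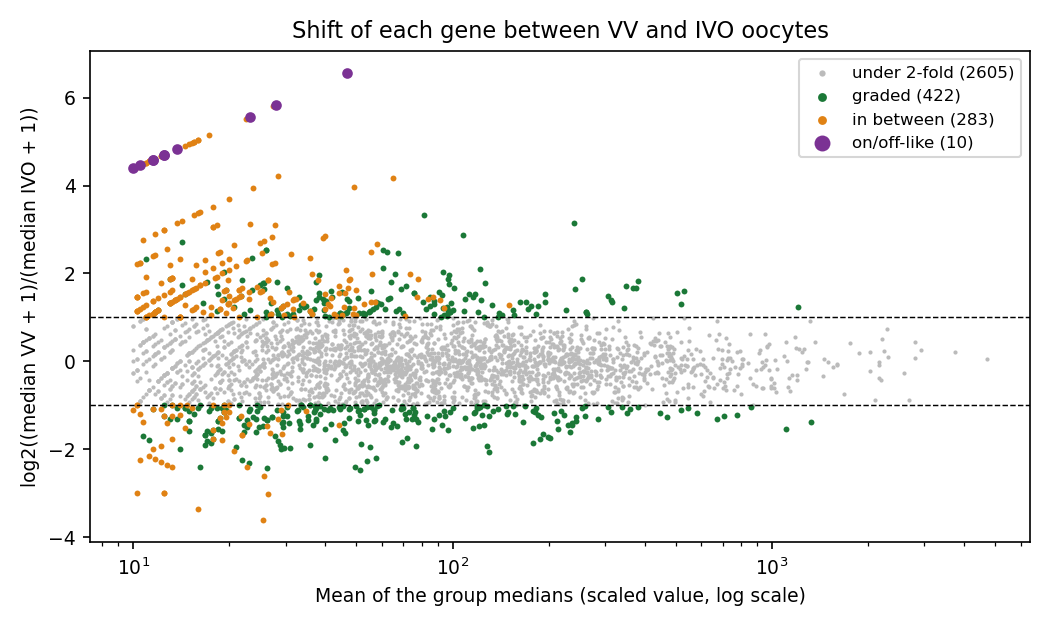
Log2 ratio of the VV to the IVO median (each plus 1, vertical axis) against the mean of the group medians (scaled value, log axis) for 3320 genes. Dashed lines mark 2-fold, and colours divide the 715 genes past it into 422 graded, 283 in between and 10 on/off-like; the last all lie above the upper line, and shifts narrow with rising level.

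The size of the shift followed the level. The median absolute log2 ratio was 0.74 over 909 genes with a level of 10 to 30, 0.54 over 1175 genes of 30 to 100, 0.35 over 851 genes of 100 to 300, 0.31 over 331 genes of 300 to 1000 and 0.29 over 54 genes above 1000. In the lowest class, 24.3% of genes were at least 2-fold higher and 14.6% at least 2-fold lower in VV. In the class of 300 to 1000, 3.32% were higher and 4.53% lower, and above 1000 there were 1 and 2 genes. With all oocytes set to the same summed value, the order of the directions turned in the classes from 100 to 1000, with 41 higher and 32 lower at 100 to 300 (35 and 51 before) and 14 and 7 at 300 to 1000 (11 and 15 before), and above 1000 there were 2 and 2. Low values rest on few reads in the shallow libraries, and the part of this in the width of the lower classes was not tested. Genes above 0 in all 29 oocytes had a median absolute ratio of 0.37, with 41 of 1107 (3.70%) at least 2-fold higher and 75 (6.78%) lower.

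The number of genes past 2-fold rested on single IVO oocytes more than on VV oocytes. Leaving out each of the 29 oocytes in turn, 237 of the 413 higher genes and 172 of the 302 lower genes stayed past 2-fold each time. Without VV library 87, 432 genes were higher and 298 lower, and without VV library 87 and IVO library 62, 402 and 329. Without library 72, 508 were higher and 429 lower, and the median absolute ratio was 0.61. Without IVO library 59, which had the fewest genes of the IVO oocytes, 302 were higher and 242 lower, with a median absolute ratio of 0.42. With the 14 VV and 6 IVO oocytes that aligned at 60% or more, 408 were higher and 310 lower, with a median absolute ratio of 0.50 and a difference in genes detected of 414.5. The count of genes higher in VV changed more with means over oocytes than with any 1 library left out, but the count of lower genes did not. With means in place of medians, 798 genes were higher and 252 lower, but without VV library 87 the means gave 312 and 374. When all oocytes were set to the same summed value, 451 were higher and 205 lower, and the median of all genes moved by 0.085 on the log2 scale.

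The largest shifts among genes with a mean of the group medians of at least 50 are given by the number of the gene in the file. Gene 7242 was above 0 in all 22 VV oocytes, at 12 to 735 with a median of 124.5. The highest value is that of library 87, and the next highest was 215 in library 75. In IVO oocytes it was listed at 0 in libraries 59, 63 and 64, at 6 in library 62, 27 in library 60, 56 in library 61 and 147 in library 72. The groups overlapped through libraries 60, 61 and 72, and the last lay above the VV median. The ratio of medians was 4.16 on the log2 scale, and 2.84 to 4.97 when 1 oocyte was left out. The IVO median of 6 is the value of library 62, where 1 read is worth 5.565 units. This ratio is therefore taken against a value of 1 read, near the floor. The other groups of the series had higher medians than these IVO oocytes, with 109 in IVO libraries 19 to 38, 106 in IVM libraries 39 to 56 and 88 in IVM libraries 1 to 17, IVM being maturation entirely in vitro.

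Gene 1771 was above 0 in all 22 VV oocytes, at 53 to 3489 with a median of 149, where the highest value is that of library 87. In IVO oocytes it was 0 in library 59, 7 in library 60, 122 in library 61, 6 in library 62, 14 in library 63, 26 in library 64 and 261 in library 72, and 3 VV oocytes exceeded the last. The groups overlapped through libraries 61 and 72. The log2 ratio was 3.32, and 2.84 to 3.71 with 1 oocyte left out. Its median was 43 in IVO libraries 19 to 38, 58 in IVM libraries 39 to 56 and 24 in IVM libraries 1 to 17, all below the VV median.

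Gene 413 had the largest shift down, with 0 to 61 in VV oocytes and a median of 15. In IVO oocytes it was 363 in library 59, 88 in library 60, 53 in library 61, 134 in library 62, 125 in library 63, 68 in library 64 and 33 in library 72. Of 22 VV oocytes, 16 lay below every IVO oocyte, and the groups overlapped only through libraries 61 and 72. The 16 include VV library 87 at 0, which cannot hold a value between 0 and 61. The log2 ratio was -2.48, and -2.75 to -2.30 with 1 oocyte left out. The median was 63 in IVO libraries 19 to 38, 18 in IVM libraries 39 to 56 and 42 in IVM libraries 1 to 17.

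Gene 4043 was at 0 to 57 in VV oocytes with a median of 18. In IVO oocytes it was 272 in library 59, 102 in library 60, 19 in library 61, 150 in library 62, 41 in library 63, 90 in library 64 and 54 in library 72. The groups overlapped through libraries 61, 63 and 72, while 11 VV oocytes lay below every IVO oocyte. The 11 include VV library 87 at 0, which cannot hold a value between 0 and 61. The log2 ratio was -2.26, and -2.42 to -1.94 with 1 oocyte left out. Its median was 40 in IVO libraries 19 to 38, 22.5 in IVM libraries 39 to 56 and 61 in IVM libraries 1 to 17. Levels in the other groups stand on the same upper-quartile scale, but come from libraries of other numbers.

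**Figure D4:**
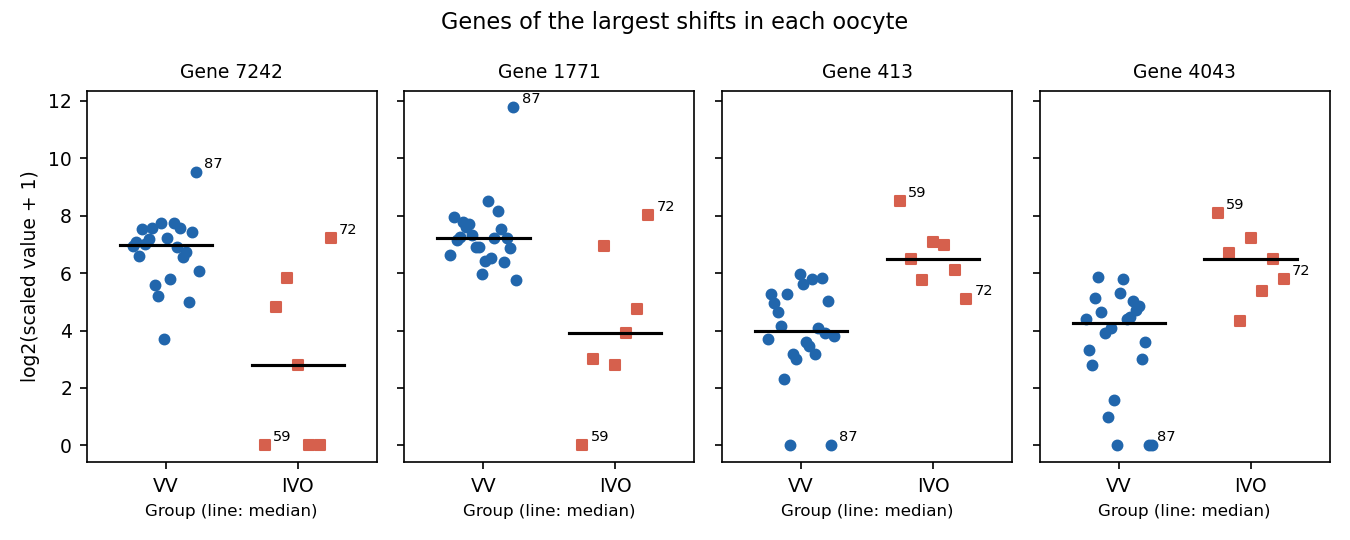
Scaled value of 4 genes in each oocyte, as log2(value + 1), for 22 VV (circles) and 7 IVO oocytes (squares), with lines at the group medians and libraries 87, 59 and 72 numbered. Genes 7242 and 1771 have higher and genes 413 and 4043 lower medians in VV; the groups overlap for each gene, and library 72 lies within the range of the VV oocytes for all 4.

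Oocytes of the VV group resembled each other more than these 7 IVO oocytes did, but no more than oocytes of the other groups of the series. Across the 3320 genes, the 231 pairs of VV oocytes had a median rho of 0.780 (range 0.423 to 0.895), the 21 pairs of IVO oocytes a median of 0.690 (0.496 to 0.832), and the 154 pairs of a VV and an IVO oocyte a median of 0.701 (0.386 to 0.882). The medians within IVO and between the groups were close, and their order turned without IVO library 59 (0.719 within IVO and 0.715 between), without IVO library 63 (0.717 and 0.714), with Pearson's r of log2 values (0.617 and 0.616) and without library 72, when the medians were 0.780 within VV, 0.687 within IVO and 0.679 between the groups. Without VV library 87 and IVO library 62, they were 0.790, 0.676 and 0.703. With 40000 reads each, over 3081 genes with a mean of the group medians of at least 1 read, they were 0.707, 0.626 and 0.644. Medians within the other groups of the series were taken over the genes of their own comparisons. IVO libraries 19 to 38, of the same label, had 0.794. IVM libraries 39 to 56 had 0.805 and IVM libraries 1 to 17 had 0.802. VV oocytes came from some of the heifers only, and the part of this in their resemblance was not tested. These correlations are across genes, and pairs that share an oocyte are not independent.

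For 21 of 22 VV oocytes the median rho with other VV oocytes exceeded that with IVO oocytes. The exception was VV library 87, at 0.444 and 0.457, the lowest of all oocytes in both. The next lowest with other VV oocytes were libraries 76 at 0.676, which had the fewest reads, and 78 at 0.686, which had many. The highest was library 83, at 0.857. Of the IVO oocytes, 4 of 7 were closer to IVO than to VV. The difference was small for IVO library 62 (0.708 with VV and 0.712 with IVO), library 63 (0.654 and 0.663) and library 64 (0.740 and 0.735). It was larger for library 59 (0.517 and 0.593) and library 60 (0.667 and 0.704). Library 61 was closer to VV (0.786 and 0.761), as was library 72.

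**Figure D5:**
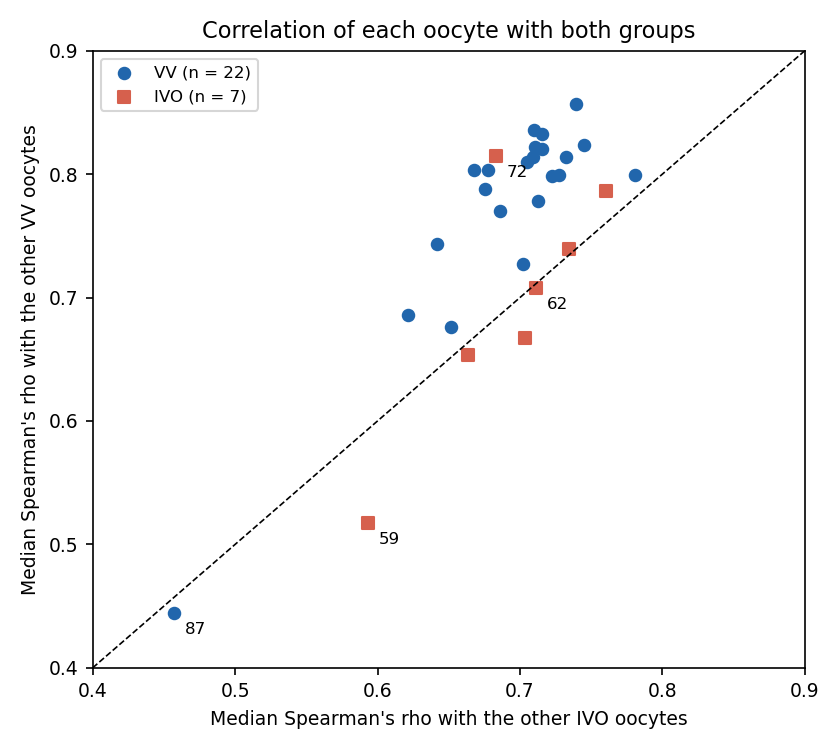
Median Spearman's rho of each oocyte with the other IVO oocytes (horizontal axis) and with the other VV oocytes (vertical axis), across 3320 genes; circles are 22 VV and squares 7 IVO oocytes, and the dashed line marks equal values. Of the VV oocytes, 21 lie above the line and library 87 lies below it; IVO libraries lie near or below it except 72, which lies among the VV oocytes.

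Spread per gene between oocytes gave no clear order of the groups. Over 1690 genes with both medians of at least 50, the interquartile range of log2(value + 1) had a median of 0.81 in VV and 0.94 in IVO oocytes, and it was smaller in VV for 59.9% of genes. Without IVO library 59 the order turned, with 0.81 in VV and 0.78 in IVO over 1725 genes. The range was then smaller in VV for 47.2% of them. Without library 72 the medians were 0.81 and 0.88, and without VV library 87 they were 0.76 and 0.94. The order also turned with SDs in place of interquartile ranges (1.19 in VV and 0.88 in IVO). These SDs include VV library 87 with its coarse values, and its part in them was not tested. By its median, the share of the highest genes was lower in VV oocytes, but the ranges coincided. The 100 highest genes of an oocyte held 25.1 to 34.1% of its summed values in VV, with a median of 26.5%, and 25.5 to 34.7% in IVO, with a median of 30.4%. The highest shares were those of VV library 87 and IVO library 59, and the lowest IVO share that of library 72, without which the IVO median was 30.6%. Of the 100 genes with the highest group medians, 78 were shared by VV and IVO, and of the highest 10, 6 were shared.

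Other pairs of groups give a scale for these shifts. IVO libraries 19 to 38 against the same 7 IVO oocytes, a comparison of oocytes with the same label, had a median absolute log2 ratio of 0.61 over 3302 genes, with 552 genes (16.7%) at least 2-fold higher and 398 (12.1%) lower. IVM libraries 39 to 56 against these 7 oocytes had a median of 0.62 over 3373 genes, with 570 (16.9%) higher and 362 (10.7%) lower. Both were larger than the 0.49 of VV against IVO, with which they share the IVO oocytes. This order rested on library 72. Without it, the medians were 0.61 for VV, 0.60 for IVO libraries 19 to 38 and 0.62 for IVM libraries 39 to 56 against the other 6 IVO oocytes. IVM libraries 1 to 17 against IVO libraries 19 to 38, which share no oocyte with VV against IVO, had a median of 0.32 over 3367 genes, with 104 (3.09%) higher and 74 (2.2%) lower in IVM.

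Genes past 2-fold between VV and IVO were looked up in that last comparison, of maturation entirely in vitro with maturation in vivo. Of the 331 genes at least 2-fold higher in VV that were also tested there, 105 (31.7%) were higher in IVM than in IVO, with a median log2 ratio of -0.18, against 50.1% and a median of 0.00 over the 3087 genes tested in both. At least 2-fold higher in IVM were 9 of them (2.72%, against 2.62% of the 3087), and at least 2-fold lower 10 (3.02%, against 2.01%). Of the 279 genes lower in VV, 134 (48.0%) were higher in IVM, with a median of -0.02, and 10 (3.58%) were at least 2-fold higher and 12 (4.3%) at least 2-fold lower in IVM.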

How the data were processed

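Poly(A) RNA of single oocytes was sequenced after separation from the DNA. Trim Galore 0.4.4 was used by the authors for trimming, HISAT2 2.1.0 for alignment to UMD3.1.1 and SeqMonk for quantification. Deposited values are scores, that is, values scaled to the same upper quartile by the authors and rounded, which was read from the values, as the sources used here do not describe it. Reads per value were recovered as the upper quartile of 61.21 divided by a whole number per library, searched near the read total given by the study. In the 10 libraries with a lowest value of at least 4, 99.95% of values above 0 were whole reads. Where 1 read was worth less than 1 unit (8 libraries), reads are approximate, and where less than 0.5 (1 read rounds to 0) detection is undercounted. Alignment rates were taken from the study's list of libraries.

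Ratios are log2((median + 1)/(median + 1)). Named by number are the 2 largest and 2 smallest ratios among genes with a mean of the group medians of at least 50 that kept their direction without VV library 87, IVO library 62, both, IVO library 72, and with rescaled totals. Members, lists and measures were chosen with earlier results of these data known. Alternatives covered libraries, averages, filters, pseudocounts and thresholds; thinning, the comparison without shared oocytes and the placing of single IVO libraries were added after the values were seen. Methylation values of no VV oocyte were given and were not used. The code was tested on simulated data. Computations were made in Python 3.11.15 with scipy 1.17.1, numpy 2.4.6 and pandas 2.3.3, and figures with matplotlib 3.10.9.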

Additional observations from a re-analysis of the deposited data

Results flagged for a closer look

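In 12 measures over the 7 IVO oocytes, 4 had an oocyte at the edge whose gap to the next exceeded Dixon's 95% critical value. Chance flags about 1 of 20 groups of independent samples, but oocytes may share a cow, and 4 of the 12 measures are genes chosen by their values in these oocytes, so that this rate does not apply to the genes and is a rough guide for the others. IVO library 64 had 630889 reads, and IVO library 59 a sum of scaled values of 862293. Gene 7242 was at 147 in IVO library 72, and gene 413 at 363 in IVO library 59. The libraries left out for lack of finite values still listed genes as infinite, which is a value above 0 divided by an upper quartile of 0. There were 365 such genes in VV library 77, 1260 in IVO library 57 and 375 in IVO library 58.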

How the results depend on the processing

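With 7 IVO oocytes, none assigned to a cow by the labels used here, precision is limited by the IVO group. In shallow libraries low values rest on few reads. No paired analysis was possible because no number links a VV to an IVO oocyte and the groups were not tested against each other. Of 146 values under other settings, 120 stayed within the SD over oocytes or 1.5 times the first value; the cause of the others was not tested unless the setting itself makes it. Genes on in VV and off in IVO numbered 6 without IVO library 72, 16 with on at 50%, 8 with off at 25%, 2 at 80000 reads and 1 each with a lowest value of at most 4 (18 VV and 5 IVO oocytes) or an alignment rate of at least 60% (14 and 6). Genes on in IVO and off in VV numbered 3 with on at 50% or off at 25%, and 0 with the last 2 selections of libraries, with on at 90% or with detection at a value of 10. With means over oocytes, 798 genes were at least 2-fold higher. With no filter on low values, 1069 were higher and 516 lower, 26.9% of them graded, with a median absolute ratio of 0.25. With a level of at least 50, 117 were higher and 121 lower, which turned their order, as did means without VV library 87 (312 and 374), and 92.9% were graded. With no filter, median rho was 0.799 within IVO and 0.800 between the groups. As an SD, with VV library 87 included, the spread was 1.19 in VV and 0.88 in IVO, which turned its order, as did leaving out IVO library 59. The 10 highest genes held 6.55% in VV and 7.07% in IVO, and the 500 highest 58.6 and 62.5%. With 1 oocyte left out, genes on in VV and off in IVO ranged from 0 to 6 (6 without library 72, 1 without library 61 or 63).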
